A study of Mus musculus with 22 samples.

Results

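Upp1, Naaa, A4galt, Fat2, Gpc3, Radil, Sh3bp4 and Tyro3 are 8 genes that stood far apart between mouse embryonic stem cells (ESCs) labelled as knockouts (KO) of Mettl3 and Ythdc1 conditional knockout ESCs under 4OHT. They were chosen, out of 44749 entries of the count table, for a strong change in the libraries labelled Mettl3 KO or for a strong difference between that change and the response to 4OHT in the Ythdc1 conditional knockout. Their values in those libraries are therefore a description and carry no test. In the libraries labelled Mettl3 KO, 7 of the 8 were higher than in wild type (WT), from 1.96-fold for Tyro3 to 20.9-fold for Fat2, and Upp1 was 9.39-fold lower. Under 4OHT in the Ythdc1 conditional knockout all 8 mean levels were lower, although the Fat2 libraries of both treatments overlapped. In separate libraries with altered Dux, which enter neither contrast, 6 of the 8 fell under 4OHT by the test, against 11.8% of 29322 entries. Of these, Sh3bp4 and A4galt lost their call when some single libraries were left out. The genes were proposed with earlier results of all 22 libraries known, so these falls are not independent evidence of the choice.

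The series holds 22 RNA-seq libraries from male ESCs grown without feeder cells in serum and LIF, made from total RNA freed of ribosomal RNA. Ythdc1 conditional knockout (Ythdc1_cKO) cells of 2 ESC lines gave 8 of them, with 4 libraries under 4OHT, a ligand used to switch on inducible Cre recombinases, and 4 under the solvent DMSO. Mettl3.KO and Mettl3.WT cells gave 2 libraries each, for which the labels give no treatment, allele or clone. Ythdc1-cKO cells that are also Dux-Het (Dux+/-) or Dux-KO (Dux-/-) gave 2 libraries per genotype and treatment, and such cells without a Dux label gave 1 for each treatment. The conditional Ythdc1 allele is thus shared by every DMSO and 4OHT library, the controls included. The sources used here do not give the treatment time or the promoter that drives the recombinase. Whether replicates are separate cultures is not stated, and p-values then measure only the spread among these libraries, which may be technical.

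METTL3 is the catalytic subunit of the complex that writes N6-methyladenosine (m6A) into RNA, mostly at an adenosine within a short consensus of which GGACT is a common form, and often near the stop codon or in long exons. YTHDC1 is the nuclear protein that reads this mark and takes part in splicing, export and chromatin-linked control of RNA. In ESCs both proteins are known for holding down retroelements and genes of the two-cell embryo, which the transcription factor Dux switches on. Among the 8 genes are enzymes of small metabolites and glycolipids (Upp1, Naaa, A4galt), proteins of the cell surface (Fat2, Gpc3, Tyro3) and cytoplasmic adaptors (Radil, Sh3bp4).

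Since METTL3 acts at a short consensus, the letters GGACT were looked up in the longest coding transcript of each gene (GENCODE vM21, coding strand only, DNA letters). Each line below holds the match nearest to the stop codon with 10 bases on either side, and the capitals mark the GGACT.
Upp1: tgtgcaccttGGACTtctatgaggg
Naaa: aagactggaaGGACTgtcccgtttc
A4galt: tcggggatgtGGACTtttttttttt
Fat2: tgagtcacatGGACTtccatcttct
Gpc3: ggatgaagaaGGACTtgaaagtgga
Radil: gggggcccagGGACTctacatacag
Sh3bp4: actggagttgGGACTctgcccacca
Tyro3: tctatagcggGGACTattatcgtca
For Naaa, Sh3bp4, A4galt and Fat2 these windows lie 50, 36, 492 and 621 bases after the first base of the stop codon. In Radil, Gpc3, Upp1 and Tyro3 they lie before it, at -222, -267, -298 and -622 bases. The transcripts held between 2 (Upp1) and 26 (Fat2) matches. Per kb of transcript, Sh3bp4 had 2.40, more than 94.2% of 15008 coding genes tested in the Mettl3 set, and Gpc3 1.81, Fat2 1.79, Naaa 1.66, Upp1 1.57, A4galt 1.43, Radil 1.08 and Tyro3 0.897. The median gene had 1.05, so 7 of the 8 lie above it, and 92.0% of those genes hold at least 1 match. Upp1, the gene that was lower, is built from short exons: its longest has 210 bases, shorter than in all but 1.1% of genes. Short longest exons were also found among the genes that were higher (630 bases in Radil, 695 in Gpc3), and only 3 of the 8 exceeded the median gene's 1490 bases, with 4059 in Fat2. Whether any of these positions carries m6A was not measured in these libraries.

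Promoters are shown for the gene that was lower in the libraries labelled Mettl3 KO (Upp1), for one that was low in every other library (Naaa), and for the gene with the largest fall under 4OHT (Gpc3). Each window runs from 250 bases before to 50 bases after a RefSeq start on GRCm38.p6 (mm10): chr11:9117853-9118152 on the plus strand for Upp1 (1 of its 3 RefSeq starts), chr5:92278132-92278431 on the minus strand for Naaa, and chrX:52613925-52614224 on the minus strand for Gpc3. Capitals mark the GC box GGGCGG or the CCAAT box, on either strand.
Upp1 promoter: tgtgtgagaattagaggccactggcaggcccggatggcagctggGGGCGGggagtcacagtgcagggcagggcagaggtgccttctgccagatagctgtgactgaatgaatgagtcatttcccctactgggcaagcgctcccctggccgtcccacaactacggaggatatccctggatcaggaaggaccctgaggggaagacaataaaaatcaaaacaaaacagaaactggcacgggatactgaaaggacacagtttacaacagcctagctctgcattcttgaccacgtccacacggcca
Naaa promoter: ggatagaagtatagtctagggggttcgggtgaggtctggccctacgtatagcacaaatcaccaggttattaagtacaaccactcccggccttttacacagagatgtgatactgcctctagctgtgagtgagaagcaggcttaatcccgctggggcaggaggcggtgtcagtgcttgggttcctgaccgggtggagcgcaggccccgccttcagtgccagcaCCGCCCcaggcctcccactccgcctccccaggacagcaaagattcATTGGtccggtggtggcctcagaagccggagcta
Gpc3 promoter: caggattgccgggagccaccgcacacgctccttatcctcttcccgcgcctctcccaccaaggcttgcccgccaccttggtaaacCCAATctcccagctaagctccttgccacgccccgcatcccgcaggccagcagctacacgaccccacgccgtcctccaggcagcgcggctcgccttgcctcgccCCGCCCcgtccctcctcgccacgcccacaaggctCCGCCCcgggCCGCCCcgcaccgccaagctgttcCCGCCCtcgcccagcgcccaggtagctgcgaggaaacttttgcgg
A GC box was found in 9 of the 11 windows of the 8 genes (7 genes, all but Fat2), and in 35.7% of all 32851 promoter windows. The Upp1 windows that start at 9117758 and 9117853 overlap and hold the same GC box, so that site is counted more than once. The share over all windows also takes in genes not tested here. CCAAT was found in 4 of the 11, for Naaa, Gpc3 and Radil, against 37.4% of all windows. TATAAA, the E-box CACGTG and the octamer ATTTGCAT were found in none of the 11 windows of the 8 genes, and in 13.6%, 7.15% and 1.74% of all windows. The Gpc3 window held 30 CpG, more than 88.3% of windows, and the chosen Upp1 window 8.

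Levels are given in CPM, counts scaled to library size and composition. Library totals ran from 24.96 to 54.14 M. Mettl3 transcripts stood at 28.7 and 29.9 CPM in WT and at 14.5 and 28.5 CPM in the libraries labelled KO, so the second KO library did not show less Mettl3 RNA (edgeR's quasi-likelihood test gave a log2 fold change of -0.44 with an adjusted p of 0.207). A gene's count also takes in exons that a deletion spares, so this does not show which library lacks the protein. Ythdc1 transcripts ran from 71.9 to 82.2 CPM under DMSO and 49.5 to 63.4 under 4OHT in the Ythdc1_cKO set. In Dux-Het and Dux-KO cells they overlapped between treatments (48.4 to 86.1 CPM under DMSO, 52.5 to 65.7 under 4OHT, adjusted p = 0.409 by edgeR). Cells without a Dux label stood at 58.4 CPM under DMSO and 46.7 under 4OHT. In the Dux set the fields for genotype and treatment run 1 sample out of step with the sample names. The names were used, since the column names match them. Duxf3, the table's name for Dux, was at most 0.0901 CPM in the Dux-KO libraries. Under DMSO it was also low in Dux-Het, at 0.0692 and 0.141 CPM, and under 4OHT it stood there at 0.924 and 1.55 CPM. ESC markers were high throughout: 8 such genes summed to at least 1080 CPM in each library.

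The 2 libraries labelled Mettl3 KO, of which the second had WT-level Mettl3 RNA, were set against the 2 WT libraries. None of the 8 genes had overlapping libraries: 7 were higher, where 33.4% of the 23977 entries tested are higher without overlap, and 1 was lower, where 32.9% are. The choice of genes used this contrast, so nothing is read from that count.

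Among the enzymes, Upp1 (uridine phosphorylase 1, which splits uridine into uracil and ribose 1-phosphate; chromosome 11, 9118103 to 9136170, plus strand) stood at 122 and 127 CPM in WT and 13.0 and 13.4 CPM in KO (log2 fold change -3.23, SE 0.099). Both KO libraries lay below all 20 other libraries of the series, whose lowest value was 20.7 CPM. Naaa, the lysosomal amidase that degrades palmitoylethanolamide (chromosome 5, 92257659 to 92278170, minus strand), went the other way. It stood at 4.01 and 3.41 CPM in WT and 44.2 and 42.3 CPM in KO (3.55, SE 0.139), and no other library exceeded 7.13 CPM. A4galt, the galactosyltransferase that makes the glycolipid Gb3 (chromosome 15, 83226722 to 83251774, minus strand), was tight in WT at 13.68 and 13.72 CPM and reached 50.4 and 59.95 CPM in KO (2.01, SE 0.124).

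Among the cell surface genes, Fat2, a giant cadherin of the Fat family involved in planar polarity (chromosome 11, 55250609 to 55336564, minus strand), had the largest fold of the 8. Its WT libraries stood at 5.58 and 6.88 CPM and its KO libraries at 107.9 and 152 CPM (log2 fold change 4.38, SE 0.186). The KO libraries themselves differed, with the second 1 higher, and both exceeded the 22.2 CPM of the highest other library. Gpc3, a heparan sulfate proteoglycan tethered to the membrane, whose loss causes overgrowth (chromosome X, 52272426 to 52613950, minus strand), stood at 47.9 and 46.7 CPM in WT and 111 and 82.6 CPM in KO (1.04, SE 0.135). Tyro3, a receptor tyrosine kinase bound by Gas6 and protein S (chromosome 2, 119797733 to 119818104, plus strand), had the smallest fold. It stood at 34.96 and 40.6 CPM in WT against 79.7 and 68.3 CPM in KO (0.97, SE 0.117), and 2 libraries outside this set, both of Ythdc1-cKO cells under DMSO, exceeded its lower KO value.

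Of the adaptors, Sh3bp4, a scaffold that binds Rag GTPases and takes part in receptor endocytosis (chromosome 1, 89070415 to 89155068, plus strand), stood at 30.3 and 31.9 CPM in WT and 144.7 and 132 CPM in KO (2.16, SE 0.0955). Radil, an effector of the GTPase Rap in cell adhesion (chromosome 5, 142484839 to 142551098, minus strand), stood at 18.5 and 16.03 CPM in WT and 62.5 and 70.2 CPM in KO (1.95, SE 0.12). In both cases the KO libraries were far above every WT library. For 6 genes (Naaa, Fat2, Sh3bp4, A4galt, Gpc3 and Radil) the KO libraries were the highest of all 22.

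Leaving out any one of the 4 libraries moved none of these 8 values by more than 0.284 in log2 (Fat2, without the second KO library). Without the second KO library, the one with Mettl3 RNA at the WT level, every one of the 8 kept its direction, as it did without the first. Marker sums also differed between these libraries. Markers of the two-cell embryo (7 genes) summed to 0.835 and 1.49 CPM in WT and to 93.7 and 102 CPM in KO, ESC markers to 1509 and 1536 against 1189 and 1199 CPM, and neural markers to 65.6 and 69.0 against 27.8 and 33.5 CPM. Fibroblast markers summed to 80.5 and 83.1 CPM in WT and 31.0 and 64.7 CPM in KO, with Lum at 0 in WT. By gene, all 7 two-cell markers rose, 3 of 6 neural markers and 2 of 6 tested fibroblast markers fell. The ESC markers were split, with 2 of 8 higher and 3 lower. Over all entries 16.4% were called higher and 14.9% lower. The part of these markers in the 8 values was not tested, and in bulk RNA fewer cells of a type and less RNA per cell cannot be told apart.

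**Figure D1:**
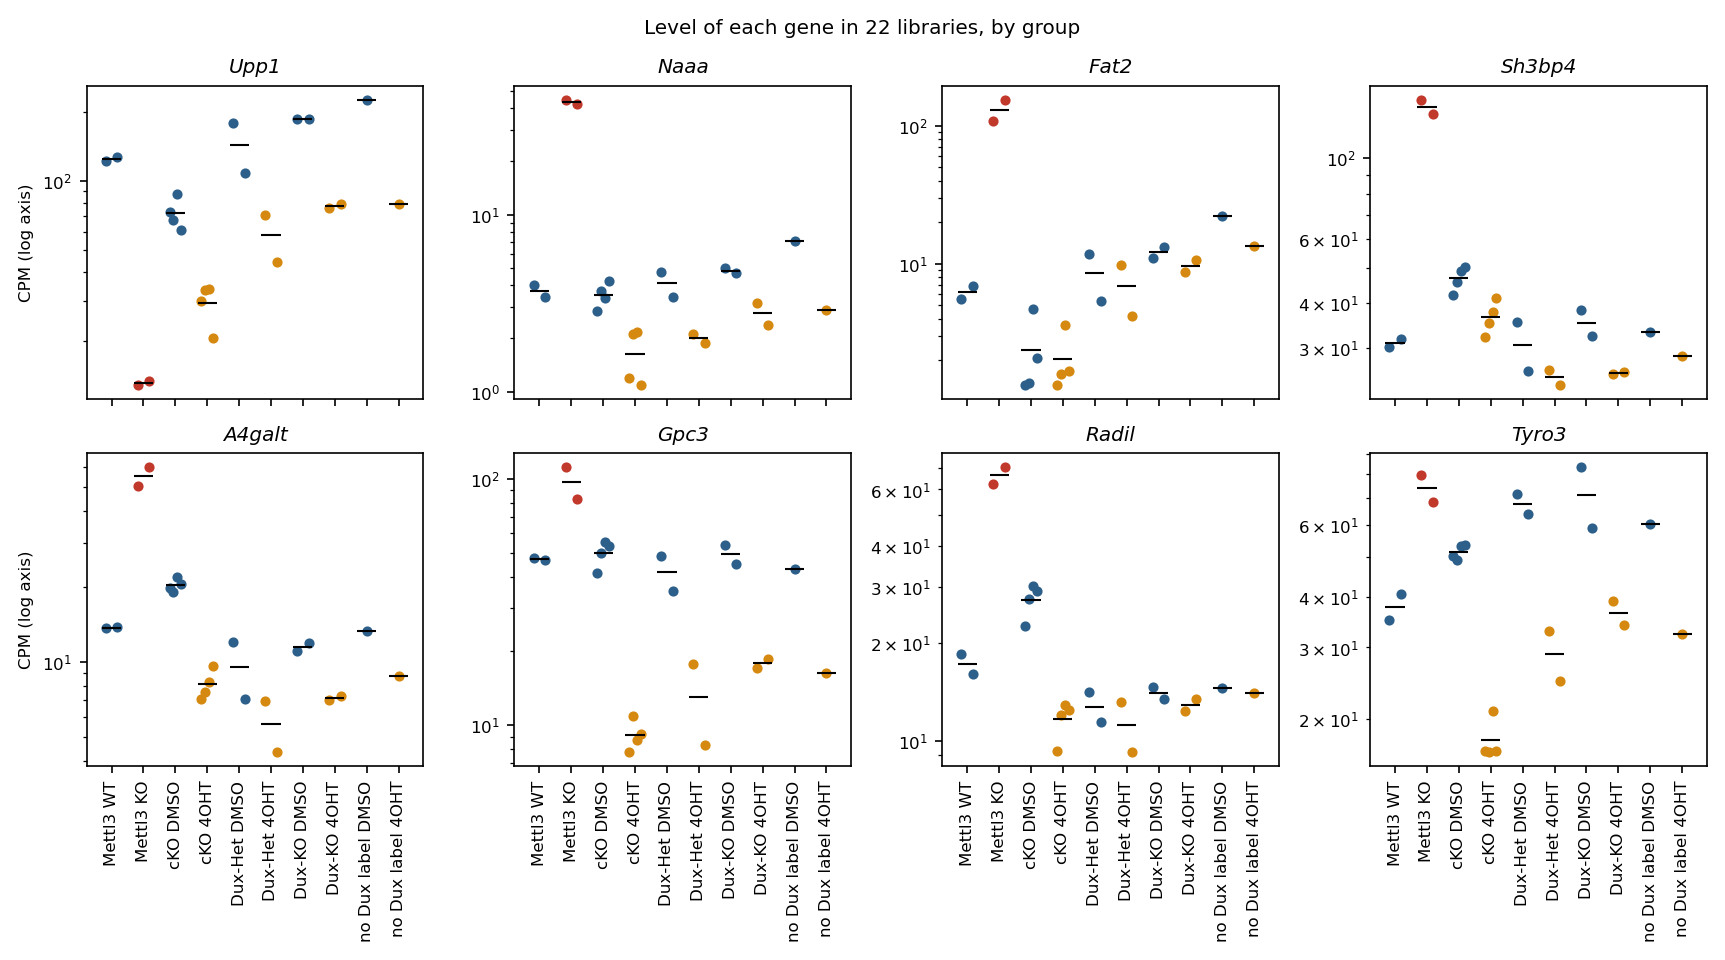
Level of each of the 8 genes in CPM (vertical log axis, scaled per panel) in the 22 libraries, by group; points are libraries, black lines group means, red marks the libraries labelled Mettl3 KO, orange 4OHT and blue the other controls. The 2 red points are the highest of the panel for 6 genes, lie among the highest for Tyro3, and are the lowest for Upp1 at 13.0 and 13.4 CPM.

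Levels were also taken per kb of all annotated exons of a gene, to set them between genes. This length can exceed that of a single transcript (1961 bases for Upp1, against 1277 in its longest coding transcript). The order of genes with close values thus depends on the length used. On this scale Upp1 was the highest of the 8 in WT at 63.3 ± 1.73 CPM per kb (SD, n = 2) and the lowest in KO at 6.73 ± 0.168. Gpc3 followed in WT at 17.6 ± 0.312 and led in KO at 36.0 ± 7.49. Tyro3, Sh3bp4 and A4galt were alike in WT at 6.10 ± 0.648, 6.08 ± 0.221 and 6.01 ± 0.0146 CPM per kb, but in KO stood at 11.95 ± 1.30, 27.1 ± 1.72 and 24.2 ± 2.97. Radil went from 3.59 ± 0.363 to 13.8 ± 1.14. Fat2 had the lowest level per kb in WT, at 0.429 ± 0.0633, below Naaa at 0.997 ± 0.115, and reached 8.96 ± 2.17 in KO, where Naaa stood at 11.6 ± 0.357. The large fold changes of Fat2 and Naaa thus started from the 2 lowest levels.

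To set this beside the Ythdc1 conditional knockout, the 4 libraries of Ythdc1_cKO cells under 4OHT were compared with the 4 under DMSO. Of the 8 genes 7 were lower without overlap between treatments, against 21.8% of 24385 entries, and Fat2 overlapped. The choice used the distance from this contrast too, so these values are again a description.

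Gpc3 was the most affected. It stood at 41.4, 49.98, 55.1 and 53.5 CPM under DMSO and at 7.80, 10.9, 8.71 and 9.20 CPM under 4OHT (log2 fold change -2.41, SE 0.114). Tyro3 stood at 50.3, 49.2, 53.2 and 53.5 CPM under DMSO and 16.7, 16.6, 20.9 and 16.7 CPM under 4OHT (-1.50, SE 0.0866). Both surface genes were thus lower in every 4OHT library than in any DMSO library, while both were higher in the libraries labelled Mettl3 KO.

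A4galt stood at 19.7, 19.1, 21.9 and 20.4 CPM under DMSO and 7.11, 7.53, 8.27 and 9.61 CPM under 4OHT (-1.28, SE 0.108). Radil stood at 22.7, 27.5, 30.03 and 29.1 CPM against 9.30, 12, 12.9 and 12.4 CPM (-1.19, SE 0.116). Naaa, already low, stood at 2.84, 3.68, 3.36 and 4.21 CPM against 1.19, 2.11, 2.18 and 1.10 CPM (-1.06, SE 0.239). In these 3 genes the separation between treatments was clear in each library, and opposite in sign to the Mettl3 set.

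Sh3bp4 separated narrowly, with 42.1, 45.7, 48.96 and 50.2 CPM under DMSO and 32.2, 35.2, 37.8 and 41.3 CPM under 4OHT (-0.31, SE 0.0859). Fat2 stood at 1.33, 1.36, 4.70 and 2.09 CPM under DMSO and 1.33, 1.61, 3.60 and 1.69 CPM under 4OHT (-0.16, SE 0.388). The library numbered 3 was the highest of its treatment for Fat2 in both, and without the DMSO library of that number the Fat2 value turned to 0.40. Upp1 was the one gene with clearly separate, lower libraries in both sets, at 72.9, 67.3, 87.4 and 61.3 CPM under DMSO and 29.99, 33.4, 33.9 and 20.7 CPM under 4OHT (-1.25, SE 0.133). Marker sums differed here too, from 7.21 to 27.9 CPM under DMSO up to 81.6 to 169 under 4OHT for the two-cell embryo, from 1673 to 1938 down to 1080 to 1353 for ESCs, and from 36.0 to 49.4 up to 47.6 to 72.4 CPM for primitive endoderm. By gene, 7 of 7 two-cell markers and 6 of 8 primitive endoderm markers rose, and 4 of 8 ESC markers fell. Fibroblast markers went from a sum of 39.1 to 69.0 to one of 94.2 to 168 CPM, but of 6 tested 1 rose and 1 fell (median 0.03). Their part in the 8 values was not tested.

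The change labelled Mettl3 KO minus the change under 4OHT, taken from a fit of all 12 libraries, was largest for Naaa (4.55 in log2, SE 0.317) and Fat2 (4.50, SE 0.53). For Fat2 it ran from 3.92, without the DMSO library numbered 3, to 4.92 when single libraries were left out. It was 3.41 (SE 0.197) for Gpc3, 3.25 for A4galt, 3.10 for Radil and 2.43 for both Sh3bp4 and Tyro3. In Upp1 it was -2.02 (SE 0.221), since the reduction labelled Mettl3 KO was deeper than that under 4OHT. The 2 surface genes Gpc3 and Tyro3 had larger values under 4OHT (-2.41 and -1.50) than in the Mettl3 set (1.04 and 0.97), whereas Naaa and Fat2 had larger ones in the Mettl3 set (3.55 and 4.38 against -1.06 and -0.16). Levels in the control groups also differed between sets. WT held 124 ± 3.39 CPM of Upp1 (n = 2) and Ythdc1_cKO cells under DMSO 72.2 ± 11.1 (n = 4), while Fat2 stood at 6.23 ± 0.92 and 2.37 ± 1.59 CPM.

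**Figure D2:**
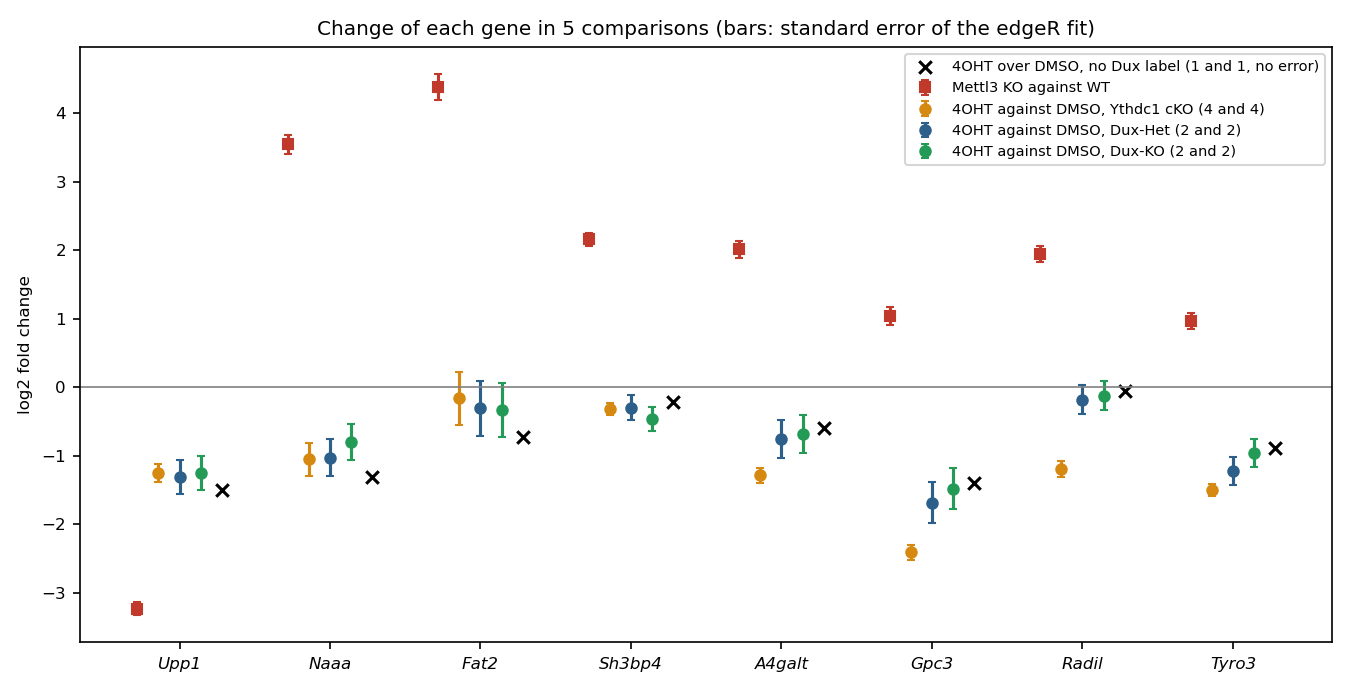
Log2 fold change of each gene (vertical axis) in Mettl3 KO against WT (red squares) and in 4OHT against DMSO in Ythdc1 cKO, Dux-Het and Dux-KO cells (circles), with bars for the standard error of the fit, and as a ratio of 1 library to 1 in cells with no Dux label (crosses). Red squares lie above 0 for 7 genes and at -3.23 for Upp1, while each of the other marks lies below 0.

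The response to 4OHT was next tested in the libraries of Dux-Het and Dux-KO cells. They enter neither contrast named in the choice, but their results were known when the genes were proposed. Over both genotypes (4 libraries against 4) 6 of the 8 genes fell, where 11.8% of 29322 entries fell, and none rose, where 13.7% did. By edgeR's quasi-likelihood test Gpc3 fell by 1.58 in log2 (SE 0.209, adjusted p = 0.000439), Upp1 by 1.28 (SE 0.175, adjusted p = 0.000541) and Tyro3 by 1.09 (SE 0.142, adjusted p = 0.000386). Naaa fell by 0.92 (adjusted p = 0.00512), A4galt by 0.72 (adjusted p = 0.021) and Sh3bp4 by 0.38 (adjusted p = 0.048). Radil and Fat2 did not pass, at -0.16 (adjusted p = 0.481) and -0.32 (adjusted p = 0.429).

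Both genotypes are given apart in what follows, Dux-Het first. Gpc3 stood at 48.5 and 35.1 CPM under DMSO and 17.7 and 8.30 CPM under 4OHT in Dux-Het cells, and at 54.0 and 45.2 CPM against 17.0 and 18.6 CPM in Dux-KO cells. Upp1 stood at 178 and 107.9 CPM against 71.2 and 44.6 CPM in Dux-Het, and at 185 and 186 CPM against 76.1 and 79.4 CPM in Dux-KO. Tyro3 stood at 71.4 and 63.8 CPM against 33.0 and 24.8 CPM in Dux-Het, and at 83.2 and 58.9 CPM against 38.98 and 34.1 CPM in Dux-KO. For Naaa, Upp1, Gpc3 and Tyro3 all 4 libraries labelled 4OHT lay below all 4 under DMSO, against 13.6% of entries.

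Naaa stood at 4.76 and 3.44 CPM under DMSO and 2.12 and 1.89 CPM under 4OHT in Dux-Het, and at 4.98 and 4.66 CPM against 3.16 and 2.38 CPM in Dux-KO. A4galt stood at 11.99 and 7.10 CPM against 6.93 and 4.35 CPM in Dux-Het, and at 11.1 and 11.9 CPM against 7.04 and 7.26 CPM in Dux-KO. Sh3bp4 stood at 35.4 and 25.96 CPM against 26.1 and 23.8 CPM in Dux-Het, and at 38.1 and 32.4 CPM against 25.4 and 25.8 CPM in Dux-KO. The second Dux-Het library of each treatment was the lower one for all 8 genes, with a median ratio to the first of 0.723 under DMSO and 0.663 under 4OHT, so its DMSO values of A4galt and Sh3bp4 come close to the 4OHT values.

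Radil, 2.29-fold lower under 4OHT in the Ythdc1_cKO set, stood here at 14.1 and 11.4 CPM under DMSO and 13.2 and 9.22 CPM under 4OHT in Dux-Het, and at 14.7 and 13.4 CPM against 12.4 and 13.4 CPM in Dux-KO. Its DMSO level was already 12.8 ± 1.92 and 14.04 ± 0.882 CPM (n = 2 each), against 27.3 ± 3.25 CPM (n = 4) in the Ythdc1_cKO set. Fat2 stood at 11.8 and 5.37 CPM against 9.73 and 4.16 CPM in Dux-Het, and at 11.1 and 13.3 CPM against 8.75 and 10.6 CPM in Dux-KO. Both genes overlapped between treatments over the 8 libraries.

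Taken by genotype, 4 genes fell in Dux-Het (Upp1, Naaa, Gpc3 and Tyro3, where 4.34% of entries fell) and 3 in Dux-KO (Upp1, Gpc3 and Tyro3, where 4.36% fell). The test of the difference between the responses of both genotypes called none of the 8. For it edgeR called 0.0% of 29322 entries and DESeq2 2 entries, with 481 entries at an unadjusted p under 0.05. A test on so few libraries that calls almost no entry cannot show that the responses are equal. The largest differences were 0.26 for Tyro3 (SE 0.281) and 0.23 for Naaa (SE 0.372). Before 4OHT, none of the 8 passed between Dux-KO and Dux-Het either, where 0.0341% of entries did and 757 stood at an unadjusted p under 0.05. Markers of the two-cell embryo summed to 6.85 and 7.03 CPM under DMSO and 49.4 and 59.7 CPM under 4OHT in Dux-Het. They summed to 0.0673 and 0.0818 CPM under DMSO and 0.0597 and 0.0901 CPM under 4OHT in Dux-KO, where 5 of these 7 markers had no count in any library of either treatment. Upp1, Gpc3 and Tyro3 fell in both genotypes, and the part of those markers in the falls was not tested.

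These tests rest on few libraries. In Dux-KO none of the 8 passed without the first DMSO library, without the first 4OHT library or without the second 4OHT library, and in Dux-Het 2 passed without the second 4OHT library, where Upp1 had an adjusted p of 0.056. Naaa lost its call in Dux-Het without the first DMSO library, either 4OHT library or either Dux-KO 4OHT library (adjusted p from 0.0631 to 0.17), and A4galt gained one there without the second DMSO library (adjusted p = 0.035). Without the first Dux-Het 4OHT library the value of Gpc3 in Dux-Het was -2.33, against -1.69 with it. Over both genotypes, Sh3bp4 lost its call without any one of 6 libraries (all but the second DMSO library of each genotype; adjusted p from 0.0727 to 0.165) and on gene entries alone (adjusted p = 0.0603). A4galt lost it without the first Dux-Het DMSO library, the second Dux-Het 4OHT library, or either Dux-KO 4OHT library (adjusted p from 0.0536 to 0.078). ESC marker sums differed by treatment, from 1992 to 2370 CPM under DMSO down to 1397 to 1668 CPM under 4OHT, and mesoderm markers from 10.2 to 18.5 down to 6.31 to 6.84 CPM. Primitive endoderm markers went from 29.9 to 40.9 up to 40.1 to 73.9 CPM, ranges that overlap. By gene over both genotypes, 5 of 8 ESC markers and 3 of 5 tested mesoderm markers fell, where 11.8% of entries fell. Of 8 primitive endoderm markers 3 rose, where 13.7% of entries did, and none of 7 two-cell markers passed. The part of all these in the 6 falls was not tested.

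Cells without a Dux label gave 1 library for each treatment and so no test. Upp1 stood at 224.5 CPM (95% exact Poisson interval 219.8 to 229.3) under DMSO and 79.0 CPM (76.4 to 81.7) under 4OHT, and Gpc3 at 42.96 (40.9 to 45.1) and 16.3 (15.1 to 17.5). Naaa stood at 7.13 and 2.88 CPM, Tyro3 at 60.3 and 32.5, Fat2 at 22.2 and 13.5, A4galt at 13.2 and 8.75, and Sh3bp4 at 33.2 and 28.5 CPM. Radil was nearly level at 14.5 and 14.04 CPM. The intervals, which cover counting error only, separated the treatments for all but Radil.

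Ranked over the 10 groups, libraries labelled Mettl3 KO came first for 7 genes and last for Upp1. For Tyro3 that first place, at 74.0 ± 8.07 CPM, was not separate from Dux-KO cells under DMSO at 71.1 ± 17.2. Upp1 ran from 224.5 CPM with no Dux label under DMSO to 185 ± 0.299 in Dux-KO under DMSO, 143 ± 49.7 in Dux-Het overlapping 124 ± 3.39 in Mettl3 WT, and then the 3 Dux-set groups under 4OHT and Ythdc1_cKO cells under DMSO, from 79.0 down to 57.9 CPM, which overlap as neighbours. Its last places were Ythdc1_cKO under 4OHT at 29.5 ± 6.13 CPM and the libraries labelled Mettl3 KO at 13.2 ± 0.329. Gpc3 had 3 levels: 96.8 ± 20.1 CPM in the libraries labelled Mettl3 KO, 41.8 to 49.98 CPM in the 5 control groups, and 9.16 to 17.8 CPM in the 4 groups under 4OHT.

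Over the 10 group means (log2 of CPM plus 0.5), Radil followed A4galt (Pearson r = 0.967) and Sh3bp4 (r = 0.948), and Gpc3 followed Tyro3 (r = 0.895). Upp1 ran against Sh3bp4 (r = -0.665). These are descriptions over 10 points, which share the library sets, and which hold 1 group that lies far out. Of 17854 gene entries with at least 1 CPM on average, those with the pattern most like each gene are given, with at most 2 per gene. Sh3bp4 was most like Pdgfc, a platelet-derived growth factor (r = 0.986; 2.44 CPM in WT and 42.2 in KO), followed by Usp46os2 (r = 0.977), named as an opposite-strand transcript, whose reads may not be told apart from those of its partner gene. A4galt was most like Dkk3, a secreted protein of the Dickkopf family (r = 0.987; 3.45 and 9.60 CPM), which also came second for Radil, and then Mgat3, a glycosyltransferase of N-glycans (r = 0.986). For Gpc3, Pde3b, a phosphodiesterase of cyclic nucleotides, came second (r = 0.98), with a log2 fold change under 4OHT of -1.42. For Fat2 they were Ankrd35 (r = 0.97) and Uba1y, a ubiquitin-activating enzyme gene of the Y chromosome (r = 0.966; 2.57 and 19.0 CPM). Naaa had Tmem11 and Klhl13, Upp1 had Svip and Lrch2, Radil had Sdk1 besides Dkk3, and Tyro3 had Gm44570 and Adamts19, all at r from 0.967 to 0.979.

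Each gene was then set beside a list of other genes of its pathway, picked by function but with earlier results of these data known. The test in the Mettl3 set called 31.2% of entries, 16.4% higher and 14.9% lower, with a median log2 fold change of 0.02 over all entries. These counts rest on both WT libraries: without the first, 1.36% of entries and no gene of these 8 lists passed, and without the second 7.53% and 14 genes did.

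Around Upp1, of 21 tested genes that make, salvage or break down pyrimidines 5 rose and 7 fell (median -0.11). Tk1, the thymidine kinase of dividing cells, rose from 38.8 ± 0.871 to 78.1 ± 3.64 CPM (1.01 in log2, adjusted p = 0.0001), and Uprt rose by 1.08 (adjusted p = 0.00317). Dhodh, the mitochondrial enzyme of pyrimidine synthesis, fell from 37.1 ± 2.22 to 15.9 ± 2.11 CPM (-1.22, adjusted p = 0.000177), and Uck1, a uridine kinase, fell by 0.75. Under 4OHT Dhodh and Tk1 both fell, in the Ythdc1_cKO set (by 0.81 and 1.19) and in the Dux set (by 1.07 and 1.48). Dhodh thus shared the direction of Upp1 in the 3 sets, though not alone on this list, and Tk1 did not in the Mettl3 set.

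Around Naaa, of 11 tested genes of N-acylethanolamine and ceramide hydrolysis 2 rose (Asah2 by 0.78 in log2, Gde1 by 0.48) and 2 fell (Gdpd1 by 1.22, Asah1 by 0.33). Naaa itself was at 3.55. Without the second KO library no gene of this list rose and 3 fell. Asah1, the lysosomal acid ceramidase and a relative of Naaa in sequence, stood at 81.8 ± 1.27 CPM in WT and 65.0 ± 5.39 in KO, and rose under 4OHT by 0.27 (adjusted p = 0.00124 by edgeR).

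Around A4galt, of 16 tested glycosphingolipid genes 7 rose and 1 fell (median 0.47). Fut2, a fucosyltransferase, rose by 1.50 in log2 and B4galnt1, which makes complex gangliosides, by 1.24 (5.97 ± 0.718 to 14.1 ± 0.218 CPM). Ugcg, whose product glucosylceramide starts the pathway, fell by 0.38. Under 4OHT in the Ythdc1_cKO set, where 45.1% of entries passed (23.7% higher, 21.4% lower), 3 of 15 rose and 7 fell, and A4galt itself was lower.

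Around Fat2, of 8 tested Fat, Dachsous and Celsr cadherin genes 4 rose and none fell. Dchs1, a cadherin that binds Fat4, rose from 1.58 ± 0.228 to 7.37 ± 2.79 CPM (2.22 in log2, adjusted p = 0.000702), and Fat4 by 1.35 (adjusted p = 0.0492), from a level under 1 CPM. Without the first KO library 3 of them rose and 3 fell. Under 4OHT in the Ythdc1_cKO set 3 of 9 rose and 4 fell.

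Around Gpc3, of 19 tested heparan sulfate proteoglycan genes 9 rose and 3 fell (median 0.48). Gpc6, another glypican, rose by 1.29 in log2 and Sdc2, a syndecan, by 1.22 (6.24 ± 0.366 to 14.5 ± 1.62 CPM), while Gpc2 fell by 0.52 and Ext1, a polymerase of the heparan sulfate chain, by 0.50. In the Ythdc1_cKO set 8 rose and 7 fell, with Gpc6 falling by 0.56 (adjusted p = 0.0302 by edgeR) and Sdc2 at 0.04 (adjusted p = 0.851). Gpc6 thus rose in one set and fell in the other, as the values of Gpc3 did. Gpc1 had the same signs, at 0.52 in the Mettl3 set (adjusted p = 0.0632 by edgeR) and -0.43 in the Ythdc1_cKO set (adjusted p = 0.000137). Gpc4 rose in both sets and Gpc2 fell in both.

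Around Radil, of 20 tested Rap GTPase and effector genes 6 rose and 4 fell (median 0.01). Rapgef2, an activator of Rap, rose by 0.82 and Rasip1, the closest relative of Radil on the list, by 0.68. Rap1gap2, an inhibitor of Rap, fell by 0.70 in the Mettl3 set and rose by 1.21 in the Ythdc1_cKO set. Around Sh3bp4, of 21 tested genes of Rag GTPases and amino acid sensing 6 rose, with Rragc at 0.87 and Rragd at 0.73, and 9 fell, with Nprl2 at -1.15 and Sec13 at -0.84 (median -0.26). Tyro3 had 4 listed partners, its relatives Axl and Mertk and the ligands Gas6 and Pros1, and none passed in the Mettl3 set, where 2 rose without the second KO library and 1 fell without the first. Under 4OHT in the Ythdc1_cKO set Axl and Pros1 rose and Mertk fell.

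**Figure D3:**
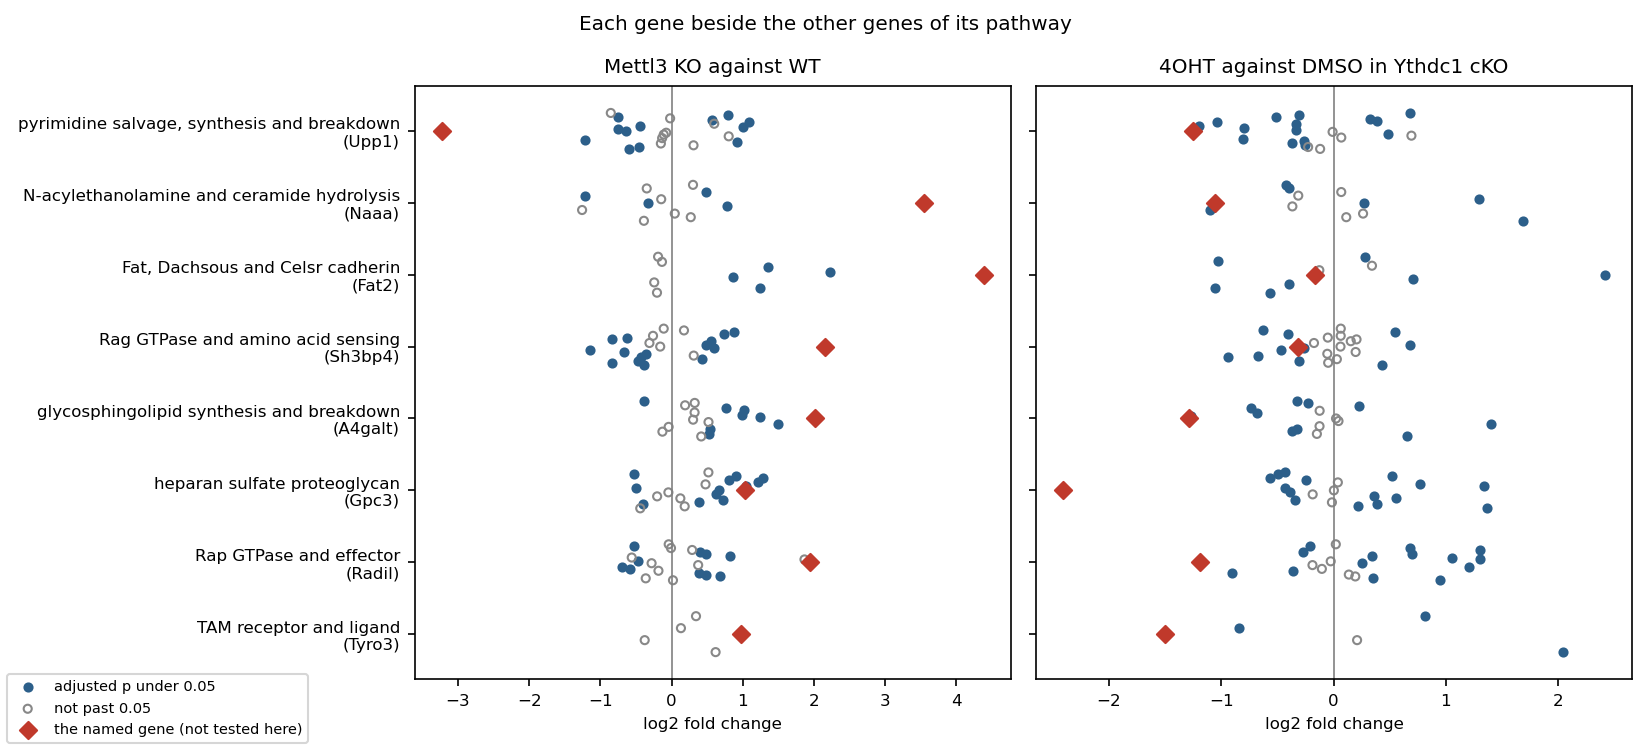
Log2 fold change (horizontal axis) of the other genes of each gene's pathway list in Mettl3 KO against WT (left) and in 4OHT against DMSO in Ythdc1 cKO cells (right); filled circles are past an adjusted p of 0.05, open circles are not, and red diamonds are the 8 genes, which are not tested here. In the left panel, whose contrast chose the 8 genes, each diamond but that of Gpc3 (1.04) lies outside the circles of its list, Radil (1.95) just beyond Rapgef4 (1.87).

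The 8 genes lie on 6 chromosomes, with Upp1 and Fat2 far apart on chromosome 11 and Naaa and Radil on chromosome 5. Of their 80 nearest tested neighbours, 5 on each side, 22 passed in the Mettl3 set, where 31.2% of 23977 entries did. With at least a 2-fold change 8 passed, where 12.5% of 22949 gene entries did, so neither count stands above its share. Papolb, a poly(A) polymerase gene inside the span of Radil on the same strand, rose with it (3.89 to 12.4 CPM, log2 fold change 1.67), and Tnrc18, 174 kb away, rose by 1.26. No exonic base is shared by Papolb and Radil, but the sources used here do not say how the authors assigned reads within introns. Ltk, a receptor tyrosine kinase gene 37.3 kb from Tyro3, rose from 0.821 to 3.67 CPM (2.16, SE 0.291), and Slc36a1, 14.3 kb from Fat2, by 1.00. Usp26, 471 kb from Gpc3, fell from 16.6 to 1.60 CPM (-3.37, SE 0.256) while Gpc3 was higher. Pkd1l1 near Upp1 fell by 1.78, 1700001L05Rik near A4galt fell by 1.30 and Mroh2a near Sh3bp4 rose by 1.11, and no neighbour of Naaa moved that far. Without the first WT library 1 of these neighbours passed, and without the second 7.

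**Figure D4:**
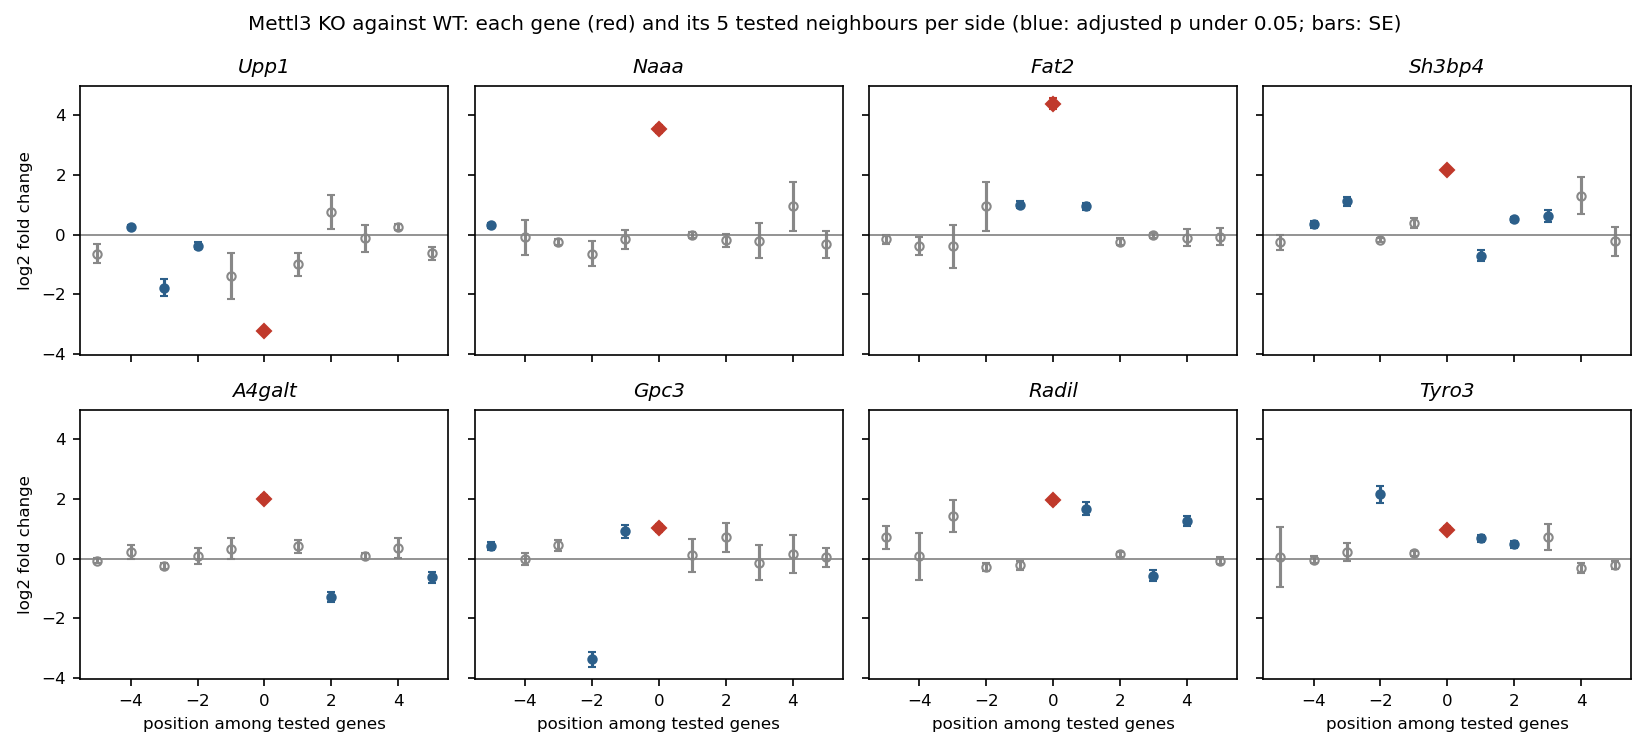
Log2 fold change in Mettl3 KO against WT (vertical axis) of each gene (red diamond at 0) and of its 5 tested neighbours on either side (horizontal axis, order along the chromosome); blue circles are past an adjusted p of 0.05, grey open circles are not, and bars are standard errors. No neighbour of Naaa or A4galt shown reaches the height of its red diamond, while Papolb at 1.67 lies beside Radil at 1.95.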

How the data were processed

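RNA-seq was measured in 22 ESC libraries. The authors deposited unscaled counts in whole numbers, with 43672 GENCODE vM21 symbols and 1077 repeat families as entries. They also deposited a normalized signal, each count divided by 1 factor per library (largest relative deviation 5.14e-15 over 34971 complete lines), used here only as an alternative scaling. Named in the submitters' processing notes are mm10, RSEM, Bowtie2, STAR 2.7 and bcl2fastq. The sources used here do not give their order, the counting tool, whether strand was used or what was done with multiply mapped reads, and reads shared by near-identical copies could be split by either.

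The 8 genes, the pathway lists and the marker lists were chosen with earlier results of these data known. Named besides the 8 were, per pathway list, up to 2 genes per direction with the largest change past the threshold in the Mettl3 set, the 2 entries most like each gene over group means (1 entry is not reported here), and neighbours past the threshold with at least a 2-fold change. Differences were tested on the counts by glmQLFTest of edgeR 4.0.16 (R 4.3.3) after filterByExpr on the groups, TMM scaling and glmQLFit, with Benjamini-Hochberg adjustment over all entries and a threshold of 0.05. Every adjusted p is from this test unless DESeq2 is named. The Mettl3 set (4 libraries), the Ythdc1_cKO set (8) and the libraries with a Dux design (10, in 6 groups) were fitted apart, and the difference of the Mettl3 and Ythdc1 effects in 12 libraries. SE was derived by dividing the size of the log2 fold change by the root of its F statistic. CPM use 1 TMM scaling over 22 libraries, and errors are SD. Columns of the Ythdc1_cKO set carry numbers 1 to 4 and no ESC line, so lines were not compared. Alternatives were DESeq2 1.42.0, the authors' factors, no filter on low counts, gene entries alone, a replicate block and leaving out each library. Sequences are from RefSeq (GRCm38.p6), where all 8 genes matched, and GENCODE vM21.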

Additional observations from a re-analysis of the deposited data

Results flagged for a closer look

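In a group of 4 libraries, a library was singled out where its gap to the nearest other over the group's range was above Dixon's critical value for 4 samples. Of 16 such tests of the 8 genes, 2 did so, and chance gives about 1 in 20. Both concern the Ythdc1_cKO library numbered 3 under 4OHT. Fat2 stood at 3.60 CPM there, against 1.33 to 1.69 in the other 3 (gap over range 0.843), and Tyro3 at 20.9 CPM, against 16.6 to 16.7 (0.975). The DMSO library of the same number was likewise the highest of its treatment for Fat2, at 4.70 CPM, but not for Tyro3.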

How the results depend on the processing

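In the Mettl3 set all 8 genes kept their direction under DESeq2, the authors' factors, no filter, gene entries alone, the replicate block and without each library. In the Ythdc1_cKO set Fat2 ran from -0.58 to 0.40 (log2) when each replicate was left out, with 0.40 without DMSO replicate 3 and 0.000827 without 4OHT replicate 1. The count of entries called moved with single libraries and with the filter. In Mettl3 KO against WT it was 7492, and 351 to 9716 without each replicate in turn (351 without WT replicate 1, 1928 without WT replicate 2). Over Dux-Het and Dux-KO it was 7462 and ran from 3892 to 7525, in Dux-Het 2738 and from 1254 to 2957, and in Dux-KO 2890 and from 423 to 3645. With no filter on low counts Dux-Het gave 4319 and Dux-KO 4701. For the difference of both responses it was 0, with 2 by DESeq2, 28 with no filter and 0 to 1 without each replicate. For Dux-KO against Dux-Het under DMSO it was 10, with 17 by DESeq2, 124 with no filter and 0 to 15 without each replicate. Of the 8 genes, 4 to 6 passed over both genotypes, 2 to 5 in Dux-Het and 0 to 3 in Dux-KO when each replicate was left out. With no filter A4galt passed in Dux-Het (adjusted p = 0.0272) and Dux-KO (adjusted p = 0.039 by edgeR). Library numbers were not taken as pairs: deviations of same-numbered libraries correlated at 0.297, 0.0855, 0.306 and 0.311 in the Ythdc1_cKO set, where each correlated best with its own number, at 0.0606 in the Mettl3 set, 0.537 in Dux-Het and 0.234 in Dux-KO. With the number as a replicate block, 8671 entries passed over both genotypes, 3678 in Dux-Het, 4164 in Dux-KO, 7608 in the Mettl3 set and 11904 in the Ythdc1_cKO set. Naaa then passed in Dux-KO (adjusted p = 0.0406 by edgeR), and no other call on the 8 genes changed. Naaa and Fat2, at under 5 CPM in many libraries, have the fewest reads.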

Other observations

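Ythdc1 itself differed between the Mettl3 groups. It stood at 80.8 and 83.5 CPM in WT and at 135.8 and 154.5 CPM in the libraries labelled Mettl3 KO (0.82 in log2 with an SE of 0.0915 by edgeR, adjusted p = 0.000236), so the reader's transcript rose there while it fell in the Ythdc1_cKO set by 0.41 (adjusted p = 0.00064). Without the first WT library the value was 0.79 and the adjusted p 0.0673. Both of these KO libraries held the highest Ythdc1 level of all 22.

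The Dux-set controls differed from the Ythdc1_cKO controls in several of the 8 genes although both are DMSO-treated Ythdc1 conditional cells. Radil and A4galt stood at 27.3 ± 3.25 and 20.3 ± 1.22 CPM (n = 4) in the Ythdc1_cKO set and at 12.8 ± 1.92 and 9.55 ± 3.46 CPM (n = 2) in Dux-Het. Upp1 and Fat2 ran the other way, at 72.2 ± 11.1 and 2.37 ± 1.59 CPM against 143 ± 49.7 and 8.60 ± 4.56 CPM. These are levels across sets, with no test.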
